A study of Macaca radiata with 6 samples.

Results

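The corpus luteum (CL) makes progesterone from cholesterol, and the genes described here bring that cholesterol into the cell, store it or carry it out again. The list holds 10 genes. VLDLR, LRP8 and CD36 act in uptake, SOAT1, LIPE and PLIN2 in storage of cholesteryl ester and its release, ABCA1, ABCG1 and APOE in efflux, and NR1H3 is a transcriptional regulator of the efflux genes. Each gene was taken at every probe set (the group of short probes that measures a transcript on the array) whose only gene symbol in the platform annotation was a name on the list. This gave 7 probe sets for 5 genes, out of 52707 probe sets tested and 14132 genes named by a single symbol. APOE had 3 probe sets, and VLDLR, CD36, ABCA1 and NR1H3 had 1 each. LRP8, SOAT1, LIPE, PLIN2 and ABCG1 had no probe set under their symbol in the annotation used and were not analysed here, so ester storage has no member with values.

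RNA of CL was measured from female bonnet monkeys (Macaca radiata), as 3 arrays after Cetrorelix (CET) and 3 after vehicle (VEH). Cetrorelix blocks the receptor for gonadotropin-releasing hormone and thereby withdraws luteinizing hormone (LH). The CET dose was 150 µg/kg body weight in a single injection under the skin, and VEH was 5.25% glucose. Injections were given on day 7 of the luteal phase, and CL were taken 24 h later. The comparison asks which luteal genes change when LH is withdrawn. Per the design, CL of both treatments came from the same monkeys, but the labels number the CET samples 1 to 3 and the VEH samples 4 to 6 and tie no CET sample to a VEH sample. The p-values therefore measure the spread between these samples. The arrays carry probes designed for rhesus monkey, a related macaque. Whole tissue was used, so fewer cells of a type and less RNA per cell cannot be told apart.

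Luteal cells receive most of their cholesterol from circulating lipoproteins. Lipoprotein receptors, VLDLR among them, take whole particles into the cell, while CD36 is a scavenger receptor that binds oxidized lipoproteins and carries fatty acids. Cholesterol not used at once is esterified by SOAT1, kept in droplets coated by perilipins such as PLIN2, and freed again by hormone-sensitive lipase, the product of LIPE. Excess cholesterol leaves through the transporters ABCA1 and ABCG1 to acceptor particles that contain apolipoproteins, and APOE is both such an acceptor and a ligand for the receptors. NR1H3 encodes liver X receptor alpha (LXR alpha), which binds oxysterols and activates transcription of ABCA1, ABCG1 and APOE. LH is known to stimulate the uptake of lipoprotein cholesterol by luteal cells.

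The deposited signals are linear, and all levels below are log2 values after normalization between arrays. A log2 difference of 1 is a factor of 2 on the linear scale, and differences are CET minus VEH. A gene with several probe sets was read at the brightest. A probe set counted as measured when its mean over the 6 arrays was above 7.43, the 40th percentile of all probe sets. All 7 probe sets of the list were above it. The arrays were not equally alike. The 3' to 5' signal ratio of the GAPDH control probe sets, which is higher where RNA is shortened, was 142.9 on CET replicate 2 and between 1.79 and 7.31 on the other 5 arrays. Over all tested probe sets CET replicate 1 had a rank correlation of 0.747 to 0.761 with the VEH arrays, against 0.663 and 0.665 with the other CET arrays. Values without these arrays are given for each gene of the list that has a probe set, and beside only part of the other results they touch. Of the luteal cell markers, 7 of 10 had a probe set and were measured, and STAR, which moves cholesterol into the mitochondrion, reached 15.24 ± 0.34 (SD, n = 3) in VEH.

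No probe set of the list differed between CET and VEH after adjustment over all probe sets, and on each of the 7 the groups overlapped. Over the whole array 0% of probe sets passed an adjusted p of 0.05 in limma, where the smallest adjusted p was 0.83, and 5.39% had an unadjusted p under 0.05. Of the 5 genes, 0 had an unadjusted p under 0.05 in limma and 0 in the methods' t-test. The mean was lower after CET for VLDLR, CD36, APOE and NR1H3 and higher for ABCA1. By size alone, VLDLR, CD36 and APOE were lower by 1.5-fold or more, as were 24.0% of all genes. ABCA1 was higher by that fold, as were 18.6% of all genes. The count of 3 lower and 1 higher among 5 genes was not tested against these shares, and no conclusion is drawn from it. The shares also include genes below the limit for measured probe sets.

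**Figure D1:**
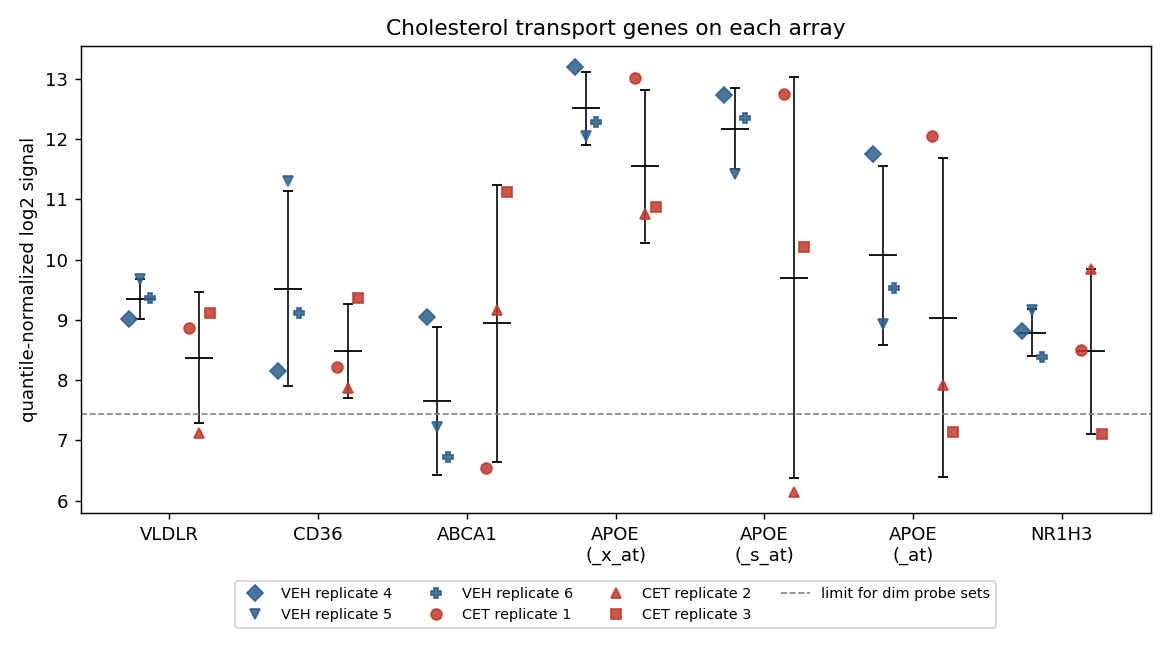
Log2 signal (vertical axis, after normalization between arrays) of each of the 7 probe sets on the 3 CET and the 3 VEH arrays. Points are single arrays, with the mean and SD of each group. CET and VEH points overlap in every panel, and CET replicate 1 and VEH replicate 4 are the highest arrays at all 3 APOE probe sets.

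VLDLR is a receptor for lipoproteins rich in triglyceride and apolipoprotein E. Its probe set read 8.87, 7.12 and 9.12 on CET replicates 1 to 3 and 9.02, 9.67 and 9.36 on VEH replicates 4 to 6. All CET arrays were below the VEH mean, and 2 of 3 were below every VEH array, while CET replicate 3 lay just above VEH replicate 4. The group means were 8.37 ± 1.09 and 9.35 ± 0.33 (SD, n = 3 each). The difference was -0.98 with a standard error of 0.62 and a 95% confidence interval of -2.33 to 0.37 (limma adjusted p = 0.83). Among the 6 arrays only CET replicate 2, whose control ratio was high, fell under the limit of 7.43. Without it the difference was -0.35, and with the control ratio as a covariate it was -0.44. Without CET replicate 1 the difference was -1.25. With VEH replicate 4 left out, all CET values were below both remaining VEH values, as for 13.4% of all genes in that fit.

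CD36 was the most variable of the uptake genes. Its probe set (MmugDNA.18747.1.S1_at) read 8.21, 7.87 and 9.36 after CET and 8.15, 11.30 and 9.11 after VEH. A single array, VEH replicate 5, stood above the other 5, which spanned 7.87 to 9.36 across both treatments. In deposited signal it read 2923, where the other VEH arrays read 289 and 543 and the CET arrays 229 to 705. The means were 8.48 ± 0.78 after CET and 9.52 ± 1.61 after VEH, a difference of -1.04 (standard error 0.77, 95% confidence interval -2.73 to 0.65, limma adjusted p = 0.84). Without VEH replicate 5 the difference was -0.15, and without VEH replicate 4 it was -1.72. Leaving out CET replicate 1 gave -0.91 and CET replicate 2 gave -0.74.

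ABCA1, which passes cholesterol and phospholipid to lipid-poor apolipoprotein A-I, was the only gene with a higher mean after CET. Its probe set (MmugDNA.4826.1.S1_at) read 6.54, 9.16 and 11.12 after CET and 9.05, 7.21 and 6.72 after VEH. In deposited signal these were 104, 609 and 1975 against 515, 112 and 103. Each group thus held both low and high arrays, and after normalization CET replicate 1 was the lowest of the 6. The means were 8.94 ± 2.30 and 7.66 ± 1.23, and 3 of the 6 arrays were below the limit of 7.43. The difference of 1.28 had a standard error of 1.04 and a 95% confidence interval of -0.99 to 3.55 (limma adjusted p = 0.85). Leaving out CET replicate 3 gave 0.19 and CET replicate 1 gave 2.51, the latter with a limma adjusted p = 0.30. Leaving out CET replicate 2 gave 1.18, VEH replicate 4 gave 1.99 and VEH replicate 6 gave 0.81.

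APOE was the brightest gene of the list. The brightest of its probe sets (MmugDNA.17966.1.S1_x_at) read 13.02, 10.76 and 10.87 after CET and 13.20, 12.06 and 12.29 after VEH. CET replicates 2 and 3 were below every VEH array, while CET replicate 1 was above VEH replicates 5 and 6. In deposited signal CET replicate 1 had 10140, close to the 11111 of VEH replicate 4, against 1740 and 1717 on the other CET arrays. The means were 11.55 ± 1.27 and 12.51 ± 0.60, a difference of -0.96 (standard error 0.60, 95% confidence interval -2.28 to 0.35, limma adjusted p = 0.83).

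The other APOE probe sets ordered the arrays in a like manner. The probe set MmugDNA.31898.1.S1_s_at read 12.75, 6.14 and 10.22 after CET and 12.73, 11.43 and 12.36 after VEH, a difference of -2.47 (standard error 1.22, limma adjusted p = 0.83). The probe set with neither suffix x nor s read 12.06, 7.92 and 7.13 after CET and 11.75, 8.93 and 9.54 after VEH, a difference of -1.04 (standard error 1.12, limma adjusted p = 0.88). At all 3 probe sets CET replicate 1 and VEH replicate 4 were the highest arrays, and CET replicates 2 and 3 were below every VEH array. The Pearson correlation between pairs of the 3 over the 6 arrays, which share their RNA, was 0.955, 0.851 and 0.697. By the naming scheme of the array, the suffix x marks probes that may bind other sequences and the suffix s probes shared by several transcripts. Without CET replicate 1 the difference at the brightest probe set was -1.65 (limma adjusted p = 0.26). Leaving out CET replicate 2 gave -0.59, CET replicate 3 gave -0.65 and VEH replicate 4 gave -0.61, and the value was -0.24 without CET replicate 2 and VEH replicate 4 together.

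NR1H3 (MmuSTS.3305.1.S1_at) read 8.50, 9.84 and 7.10 after CET and 8.82, 9.16 and 8.38 after VEH. CET replicate 2 was the highest and CET replicate 3 the lowest of the 6, and CET replicate 1 lay within the VEH range. The means were 8.48 ± 1.37 and 8.79 ± 0.39, and the difference of -0.31 (standard error 0.70, 95% confidence interval -1.84 to 1.22, limma adjusted p = 0.95) was smaller than the spread in CET. It turned to 0.39 without CET replicate 3 and was -0.97 without CET replicate 2.

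**Figure D2:**
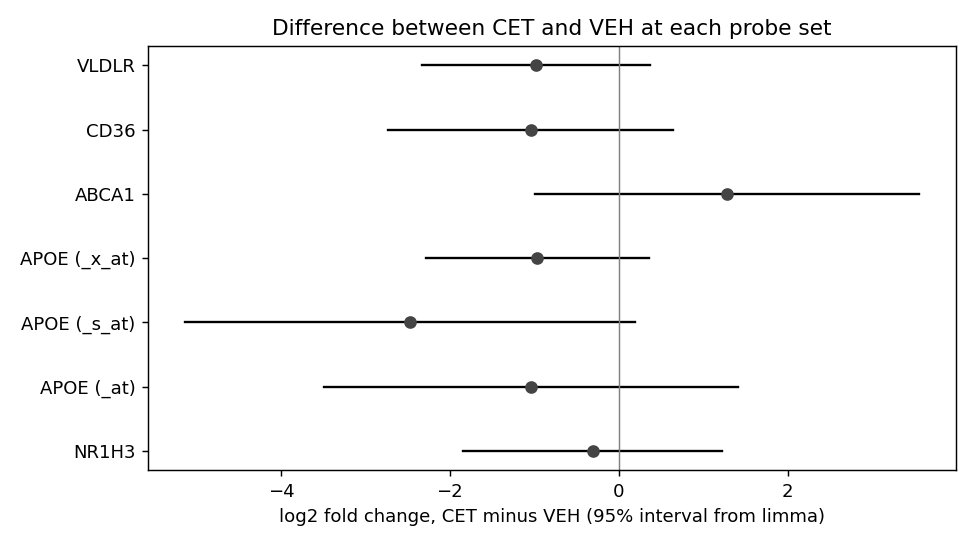
Difference of mean log2 signal, CET minus VEH, for each of the 7 probe sets, with the 95% confidence interval from limma (3 arrays a group). Every interval crosses 0, and the widest, that of the APOE probe set with the suffix s, runs from -5.14 to 0.20.

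The LXR alpha gene and its targets did not follow a common order over the arrays. Relative to the VEH mean, CET replicate 2 was 1.05 higher for NR1H3 and 1.5 higher for ABCA1, but 1.75 lower for APOE. CET replicate 3 was 3.46 higher for ABCA1, 1.69 lower for NR1H3 and 1.64 lower for APOE. CET replicate 1 was 0.51 higher for APOE and 1.12 lower for ABCA1. ABCA1 and APOE thus lay on opposite sides of the VEH mean on each of the 3 CET arrays. VEH replicate 4 was high for both, by 1.39 for ABCA1 and 0.68 for APOE.

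Spread within groups was wide for ABCA1 and CD36 beside the rest of the array. The pooled within-group SD was 1.84 for ABCA1, at percentile 99.1 of 10929 measured genes, and 1.27 for CD36, at percentile 92.0. It was 1.01 for NR1H3, 0.996 for APOE and 0.803 for VLDLR. The median over measured genes was 0.635, and all 5 genes were above it, with VLDLR at percentile 67.4. From the lowest to the highest array, ABCA1 spanned 4.58, CD36 3.43, NR1H3 2.74, VLDLR 2.55 and APOE 2.44.

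**Figure D3:**
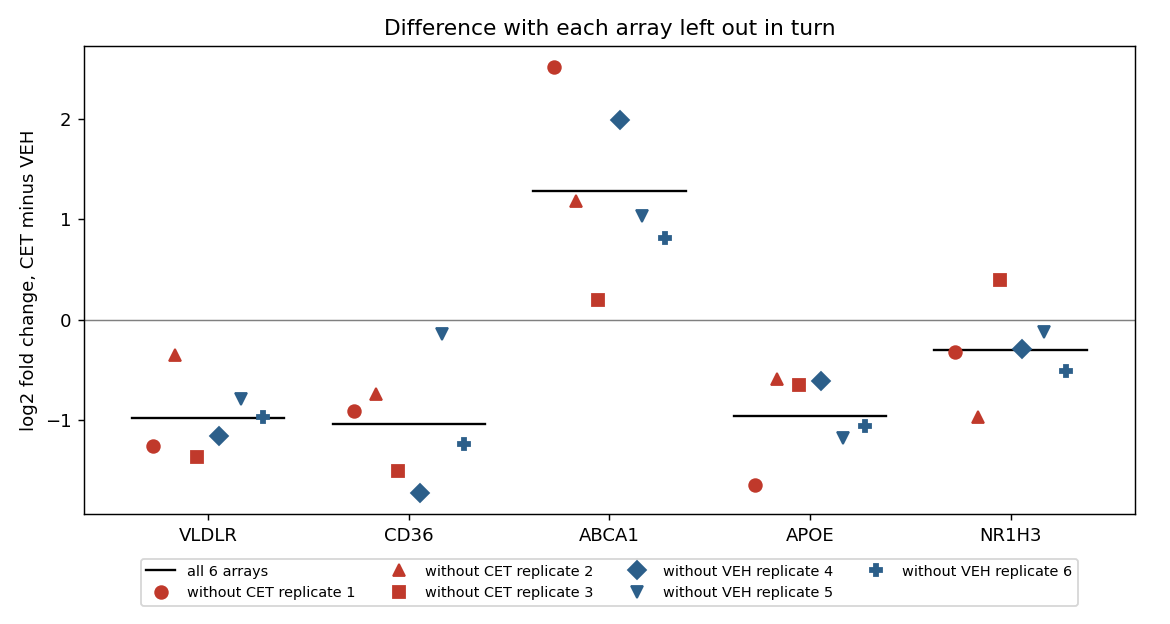
Difference of mean log2 signal, CET minus VEH, for each of the 5 genes at its brightest probe set with all 6 arrays and with each array left out in turn. NR1H3 crosses 0 without CET replicate 3, ABCA1 runs from 0.19 to 2.51 and CD36 from -1.72 to -0.15, while VLDLR and APOE stay below 0.

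Only without CET replicate 1 did 2 of the 5 genes, ABCA1 and APOE, have an unadjusted p under 0.05 among the 6 fits that leave out a single array. In that fit 13.3% of all probe sets did. The direction of VLDLR, CD36, ABCA1 and APOE was kept in each of these fits. NR1H3 turned in 1 of them.

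The other genes of the pathway were read from 5 lists ordered by role, with 112 genes in all, of which 77 had a probe set and 59 were measured. After CET 38 of the 59 had a lower mean (64.4%), against 57.7% of all measured genes. In limma 6 were lower and 2 higher at an unadjusted p under 0.05, beside 5.39% of all probe sets, and 0 passed the adjusted p. That share covers both directions and all probe sets, dim and unnamed ones included. With dim probe sets left out, 6 of the 59 were lower and 1 higher at that p, beside 5.55% of the probe sets kept. The median difference was -0.21 over the 59 genes and -0.13 over all measured genes. With array medians subtracted in place of the normalization, 47 had a lower mean, and 10 were lower and 1 higher at that p, beside 6.78% of all probe sets. That scaling moved the median of all genes by -0.11. Leaving out a single array gave 1 to 11 lower and 0 to 3 higher, and shares of 3.21% to 13.3% of all probe sets. The counts of 11 and 3 came without CET replicate 1, where the share was 13.3%.

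Among 10 measured lipoprotein receptors, partners and lipases, 3 had a lower and 7 a higher mean, with a median of 0.06. SCARB1, the receptor for high density lipoprotein, had no probe set under its symbol. LRP6, a lipoprotein receptor-related protein known as a WNT co-receptor, was the only gene here with an unadjusted p under 0.05. It read 7.53, 7.58 and 7.81 after CET and 9.93, 7.65 and 10.27 after VEH, a difference of -1.64 (standard error 0.71, limma adjusted p = 0.83). VEH replicate 5 lay within the CET range, and the other LRP6 probe set differed by 0.10. SORL1, a sorting receptor, differed by -0.90 and by 0.14 at its other probe set. The adaptors DAB1 and DAB2, which bind the tails of these receptors, differed by 0.59 and 0.42. The other DAB1 probe set differed by -0.08, all 4 other DAB2 probe sets were lower after CET, and DAB2 was -0.03 with array medians subtracted.

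Of 13 measured genes of lysosomal and cytosolic cholesterol movement, 10 had a lower and 3 a higher mean, with a median of -0.27. Lysosomal acid lipase (LIPA), which frees cholesterol from ester taken up in lipoproteins, differed by -0.33, and NPC1, which exports it from the lysosome, by -0.71, and for both the groups overlapped. The sterol carriers STARD4 and STARD5 differed in opposite directions, each without overlap between groups after normalization. Over all genes, 6.45% were without overlap in the lower and 5.07% in the higher direction. STARD4 read 10.40, 8.35 and 9.92 after CET and 10.56, 11.56 and 11.21 after VEH, a difference of -1.56 (standard error 0.57, limma adjusted p = 0.83). The other STARD4 probe set differed by -1.17, and without CET replicate 2 the value was -0.98. STARD5 read 9.70, 10.77 and 11.24 after CET and 9.03, 9.70 and 8.86 after VEH, a difference of 1.38 (standard error 0.52, limma adjusted p = 0.83). Its groups nearly touched, at 9.700 on CET replicate 1 and 9.697 on VEH replicate 5. In deposited signal CET replicate 1 (793) was below VEH replicate 5 (822), so there the groups overlapped. Of the oxysterol-binding protein family, OSBPL5 differed by 1.86, without overlap, but its other probe sets by -1.27 and -0.43. OSBPL8 differed by -0.90, also without overlap, and its other 3 probe sets ran from -2.09 to 1.23.

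Of 13 measured genes of ester storage, lipid droplets and ester hydrolysis, 9 had a lower and 4 a higher mean, with a median of -0.46. ABHD5, the co-activator of adipose triglyceride lipase, read 8.47, 6.39 and 8.94 after CET and 9.20, 10.12 and 9.56 after VEH. The groups did not overlap, and the difference was -1.69 (standard error 0.69, limma adjusted p = 0.83), or -0.91 without CET replicate 2. ACSL1, which activates long-chain fatty acids for ester synthesis, read 9.26, 8.65 and 8.34 after CET and 9.62, 9.78 and 10.04 after VEH, again without overlap. Its difference was -1.06 (standard error 0.48, limma adjusted p = 0.83), and its other probe set gave -1.17. Of the 13 genes, 2 were lower and 0 higher without overlap, beside 6.45% and 5.07% of all genes. DGAT1, which makes triglyceride, differed by -2.0 with a standard error of 1.08, and its CET arrays ran from 4.56 to 9.96. PNPLA2, the lipase that ABHD5 activates, differed by -0.81 at its brightest probe set and by 1.34 at the other. PLIN3, a droplet coat protein of the family of PLIN2, differed by -0.19.

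Of 10 measured genes of efflux, apolipoproteins and plasma transfer, 6 had a lower and 4 a higher mean, with a median of -0.17. None had an unadjusted p under 0.05 in limma (0 of 10), and 0 were without overlap, beside 11.5% of all genes in either direction. CH25H, which makes an oxysterol ligand of LXR, differed by 0.67. PLTP, LCAT and APOM, which remodel or are carried on high density lipoprotein, differed by -0.33, -0.31 and -0.49.

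Of 13 measured LXR partners, fatty acid receptors and genes of SREBP control, 10 had a lower and 3 a higher mean, with a median of -0.57. SREBPs are the transcription factors that raise cholesterol and fatty acid synthesis, and INSIG proteins hold them in the endoplasmic reticulum. INSIG2 read 8.45, 4.89 and 8.43 after CET and 9.68, 10.05 and 9.82 after VEH. Its groups did not overlap, and the difference of -2.59 (standard error 0.87, limma adjusted p = 0.83) was -1.40 without CET replicate 2 and -0.86 at the other probe set. Fatty acid synthase (FASN), a target of SREBP and LXR, read 8.70, 8.74 and 6.69 after CET and 9.57, 9.54 and 9.47 after VEH. Its difference was -1.48 (standard error 0.63, limma adjusted p = 0.83), without overlap, and it was -0.82 without CET replicate 3. MBTPS2, a protease that frees SREBPs, differed by -0.64 and RXRA, the DNA-binding partner of LXR, by 0.92, both without overlap and both with an unadjusted p over 0.05. Of the 13 genes, 4 were lower and 1 higher without overlap, beside 6.45% and 5.07% of all genes. SREBF1, SREBF2 and NR1H2, the gene of LXR beta, differed by 0.70, -0.68 and -0.01, and for these 3 the groups overlapped. Other probe sets ran from -0.13 to 2.11 for SREBF1 and from -0.38 to 0.67 for SREBF2. The value for NR1H2 had no fixed sign, being 0.03 on the signals as deposited.

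**Figure D4:**
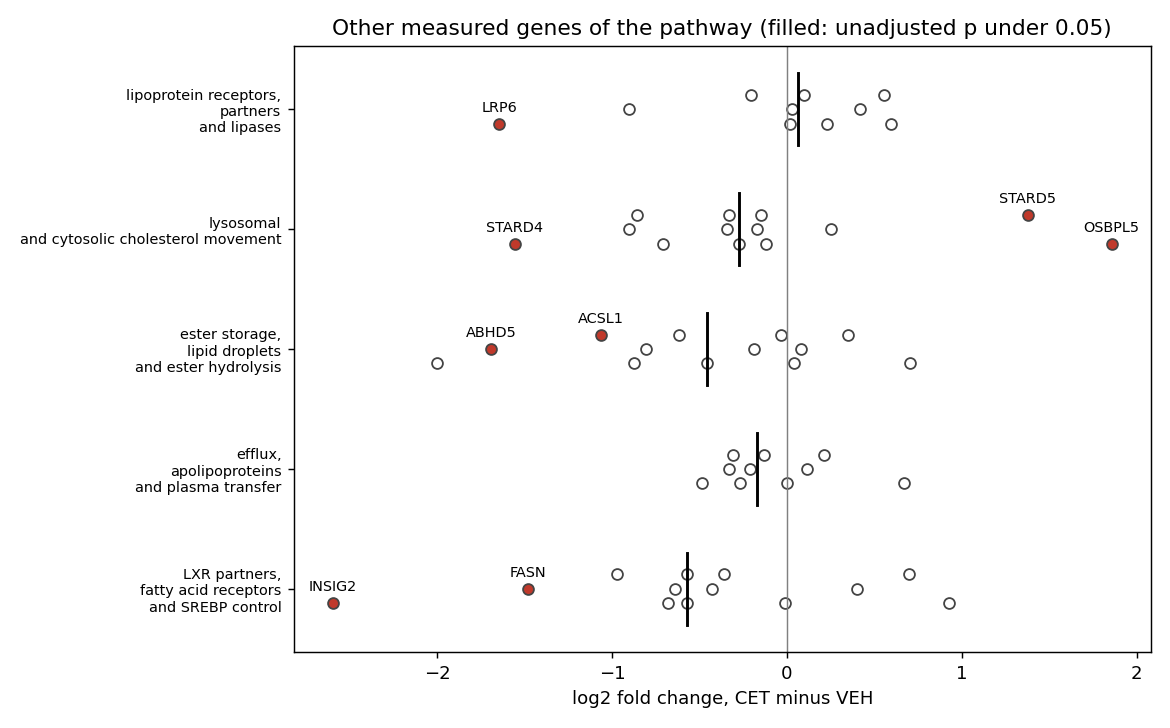
Difference of mean log2 signal, CET minus VEH, for each of the 59 measured genes of the 5 pathway lists, a point a gene, with the median of each list. The long vertical line is at 0, and the median over all measured genes (-0.13) is not drawn. List medians run from -0.57 for LXR partners and SREBP control to 0.06 for lipoprotein receptors, and in every list points lie on both sides of 0.

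APOE, ABCA1 and CD36 are also known from macrophages, and CD36 from endothelial cells and adipocytes, so markers of these cells were read as summed linear signal after normalization. Of 13 macrophage markers 12 had a probe set and 11 were measured, 6 with a lower and 5 with a higher mean after CET, and the sum was 12512 to 16216 in CET and 8173 to 14396 in VEH. MARCO was below the limit for measured genes. LYZ, the brightest, spanned 7.15 to 13.09 in CET and 8.23 to 12.75 in VEH. A linear sum weighs such a marker most, and its lowest arrays, CET replicate 2 and VEH replicate 4, also had the lowest sum of their group. CD68 differed by 0.79 and by -0.18 at its other probe set, LYZ and CD68 both with overlap. For the endothelial markers the sum was 14046 to 25128 in CET and 14329 to 21122 in VEH. Of 10 such markers 9 had a probe set and 7 were measured, 6 lower and 1 higher, with KDR and FLT1 below the limit. CDH5 differed by -1.52 (limma adjusted p = 0.83) with overlap, and PECAM1, the brightest, by -0.04. For adipocytes 4 of 6 markers were measured, 2 lower and 2 higher. Their sum was 1020 to 2908 in CET and 1520 to 2045 in VEH, and ADIPOQ differed by 0.80 and LEP by -1.26. The other ADIPOQ probe sets ran from -1.32 to 0.78. The part of these cells in the values of APOE, ABCA1 and CD36 was not tested.

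For luteal steroidogenic cells all 7 measured markers had a lower mean after CET, as did 57.7% of all measured genes. Their differences ran from -1.50 to -0.11. Only for STAR (1 of 7) did the groups not overlap after normalization, beside 6.45% of all genes in the lower direction. Other probe sets were lower for FDX1 and higher, by 0.20, for CYP17A1. The sum was 37498 to 102573 in CET and 90656 to 126791 in VEH. STAR was 14.85, 12.75 and 13.65 after CET and 15.23, 15.58 and 14.91 after VEH. The difference was -1.49 (limma adjusted p = 0.83), without overlap after normalization, but CET replicate 1 lay just below VEH replicate 6. In deposited signal CET replicate 1 (43965) was above VEH replicates 5 (34265) and 6 (34390), so there the groups overlapped. CET replicate 1, where APOE was high, also had the highest luteal sum and the highest STAR of the CET arrays, and the part of this in the APOE values was not tested. In the lists of other cell types, 2 smooth muscle and pericyte markers were measured, 1 lower and 1 higher, and 5 fibroblast markers, 3 lower and 2 higher. Of lymphocyte markers 2 were measured, 1 lower and 1 higher. Of red cell and platelet markers 4 were measured, 2 lower and 2 higher, and of epithelial markers 4, with 3 lower and 1 higher.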

How the data were processed

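CL of 3 CET and 3 VEH samples were hybridised to Affymetrix rhesus arrays. The deposited values are MAS5 signal intensity on a linear scale, 1 value per probe set, which the authors scaled on each array (trimmed mean 500 in the values). No MAS5 version, detection call or scan detail was given in the labels or methods read. Arrays give no read depth, and their number limits the precision. Probe sets were named from the platform annotation: of 52707 non-control probe sets 24956 had a single gene symbol, 361 several and 27390 none, and those with several were not named.

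Signals under 1 (29 of those tested) were set to 1, log2-transformed and quantile-normalized over all 52865 probe sets, after which 158 controls were removed. The comparison of CET and VEH used limma (version 3.58.1, R 4.3.3), fitted without covariates, with the prior variance following intensity and with Benjamini-Hochberg adjustment over all 52707 probe sets. The pipeline was tested on simulated data. An exact permutation test over 3 against 3 arrays cannot go below p = 0.1 and was not used. The genes, the pathway and marker lists and the naming rule were chosen with earlier results of these data known. The rule names all genes of the list, up to 4 measured genes of each pathway list with the smallest p, 9 genes whatever their values, and the brightest marker and the one with the smallest p of each cell type. Genes most like a member over the arrays were to be named only for members without overlap between groups, and there were 0. Markers of the other cell types are given as counts only, and 1 gene of the rule is not reported here. The alternatives tried were 4 other scalings, 16 added to each signal, low signals raised to the 20th percentile, removal of dim probe sets, array weights, limma with a constant prior variance, the methods' t-test, the control ratio as a covariate, each array left out, the 6 possible pairings as a block, and other probe sets. Leaving out CET replicate 2 and VEH replicate 4 together was chosen after seeing the data.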

Additional observations from a re-analysis of the deposited data

Results flagged for a closer look

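The GAPDH control probe sets are not among the probe sets tested, and enter only the normalization and the covariate. Their 3' to 5' signal ratio was 142.9 on CET replicate 2, above the 1.79 to 7.31 of the VEH arrays. On the same array the ratio was 37.2 for ACTB and 42.2 for EF1A, where the highest VEH array, replicate 4, had 22.4 and 9.56. CET replicate 2 held the lowest values of VLDLR (7.12), CD36 (7.87) and the APOE probe sets with the suffix x (10.76) and s (6.14). It also held the lowest of INSIG2 (4.89), STARD4 (8.35), ABHD5 (6.39) and STAR (12.75), and the highest of NR1H3 (9.84). The array was highest for other named genes too, among them DAB1 (10.36), DAB2 (12.04), OSBPL5 (9.82), NR1H2 (10.47), PLIN3 (10.64), CD68 (10.76), PECAM1 (12.88) and ADIPOQ (10.81). Further lows were those of SORL1 (9.21), OSBPL8 (9.06), LIPA (11.55), LCAT (9.32), LYZ (7.15) and CDH5 (9.11). These are examples from both sides and not a full count. The part of the ratio in these values was not tested beyond the fits without the array and with the ratio as a covariate.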

How the results depend on the processing

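VLDLR, CD36, ABCA1 and APOE kept their direction under every alternative run, and no member and no other probe set passed the adjusted p of 0.05 under any (0 in each, limma and the methods' t-test, with 2840 probe sets at an unadjusted p under 0.05 in limma and 2729 in the t-test). Members at an unadjusted p under 0.05 numbered 2 with array weights (ABCA1 and APOE) and 0 to 2 with an array left out. Members without overlap numbered 0 to 2 with an array left out, where 17.4% to 36.6% of all genes were without overlap. They were ABCA1 and APOE without CET replicate 1 (36.6%), and VLDLR without CET replicate 3 (19.5%) or VEH replicate 4 (24.1%). Without CET replicate 2 and VEH replicate 4 together there was 1, VLDLR (33.8%). Probe sets at that p were 1756 with dim ones removed (fewer tested), 5086 with array weights, and 1694 (without VEH replicate 5) to 7020 (without CET replicate 1). The median of lipoprotein receptors was 0.29 with array weights, -0.25 with the control ratio as covariate, -0.23 without CET replicate 2 and VEH replicate 4, and -0.27 to 0.20 with an array left out. That of ester storage was -0.18 as a mean over probe sets and -0.87 to -0.19 with an array left out, and that of LXR partners and SREBP control -0.62 to -0.30.

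Signs turned as follows. NR1H2 was 0.033 on signals as deposited and with trimmed mean scaling, 0.077 with cyclic loess and 0.10 with array weights. DAB2 was -0.027 with array medians, -0.12 without CET replicate 2 and VEH replicate 4, and -0.53 as a mean over probe sets, and PNPLA2 was 0.27 as such a mean. PECAM1 was 0.051 with cyclic loess. With the control ratio as covariate LIPA was 0.066, SREBF1 -0.11 and LYZ 1.67. Without CET replicate 2 and VEH replicate 4, DAB1 was -0.17 and LCAT 0.058. With an array left out the ranges that cross 0 were -0.97 to 0.39 for NR1H3, -0.34 to 0.16 for NR1H2, -0.57 to 0.38 for PECAM1, -0.60 to 0.12 for LIPA, -0.076 to 1.63 for SREBF1, -1.85 to 1.5 for LYZ, -0.74 to 0.0027 for PLTP, -1.20 to 0.75 for APOM and -0.39 to 0.050 for PLIN3. The cause was not tested.

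With 1.5-fold as the criterion, the share of higher among all such genes was 43.7%, 52.5% on signals as deposited and 35.5% with array medians, while the members gave 3 lower and 1 higher under each of the 5 scalings. No paired analysis was possible because the labels give CET and VEH different replicate numbers and so name no pairs. An animal block under each of the 6 possible pairings left 0 adjusted calls. The 3 arrays a group limit what can be seen, as the interval of each member shows.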

Other observations

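A further 18 genes of the pathway lists had a probe set below the limit for measured genes and stand outside the named genes. Among them the groups did not overlap for 2 lower and 3 higher genes, beside 4.53% and 6.28% of the 3203 genes below the limit, and they are named here after their values were seen. PPARG, the fatty acid receptor known to activate CD36, read 6.28, 6.05 and 6.14 after CET and 6.83, 8.92 and 8.46 after VEH, a difference of -1.91 (standard error 0.78, limma adjusted p = 0.83). The CET arrays were within 0.23 of each other, and all were below the limit of 7.43. FITM2, a protein of droplet formation, differed by -1.56. ABCG5, a subunit of a sterol exporter of liver and gut, read 8.07, 7.37 and 8.48 after CET and 5.54, 7.22 and 6.30 after VEH, a difference of 1.62 (standard error 0.76, limma adjusted p = 0.83). CIDEA, a droplet protein, differed by 1.93, but by 0.81 without VEH replicate 6, which read 2.88, and by 0.82 with low signals raised to the 20th percentile. PPARA, a fatty acid receptor, differed by 1.52, and by 0.80 without CET replicate 2 and VEH replicate 4 together. Values this low are less well separated from background, and no detection calls were at hand.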
